A study of Saccharomyces cerevisiae with 4 samples.

Results

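The genes described here encode the carriers by which budding yeast (Saccharomyces cerevisiae) takes up small peptides and allantoate, and the regulators of one of them. They are 6 of the 6207 gene rows of the table, taken by their systematic names: PTR2 (YKR093W), DAL5 (YJR152W), OPT1 (YJL212C), OPT2 (YPR194C), CUP9 (YPL177C) and UBR1 (YGR184C). The set was selected on the knockout over wild-type log ratios of these same arrays, in which PTR2 had been seen among the largest falls, and filled up by function. The values of the 6 genes are therefore given as a description, with no test.

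The series compared mRNA of cells lacking LOC1 (strain PSY3262, called knockout or deletion in the labels) with mRNA of wild-type cells (strain PSY3259) on 4 microarrays of 2 colours. LOC1 encodes a nuclear RNA-binding protein of ribosome assembly and ASH1 mRNA transport. Each array held 1 knockout and 1 wild-type culture, both grown in YPD rich medium at 30 °C and harvested while growing in early log phase, at an optical density between 0.2 and 0.4, and the arrays are described as independent biological replicates, with the knockout in Cy5 on arrays 1 and 4 and in Cy3 on arrays 2 and 3. The labels name 1 knockout strain, so whether another isolate would give these values is unknown, and on array 4 both channels carry the knockout's strain tag although one is described as wild type.

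The measurement is the authors' log ratio of the 2 channels. No source used here gives its log base, so values are in deposited log units and a fold is given as the fold if base 10, which is how the limit of the table at a size of 2 was read. The direction of the ratios is not settled by the dyes. As deposited, arrays 1 and 4, of the same labelled dye orientation, correlated at r = -0.723 across genes, and arrays 2 and 3, likewise, at r = -0.612. Arrays 2 and 4 were therefore turned so that LOC1 lies below 0 on every array, where it had -1.20, -0.973, -1.07 and -1.31 on arrays 1 to 4. "Lower in the knockout" below means moving the same way as LOC1. With the overall sign turned, every lower value becomes a higher one, and the mean of PTR2 becomes 0.607.

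Ptr2 is a proton-coupled carrier of dipeptides and tripeptides in the plasma membrane. Its gene is repressed by the homeodomain protein Cup9, which acts with the Cyc8-Tup1 corepressor. Ubr1, the ubiquitin ligase of the N-end rule, marks Cup9 for destruction, and imported dipeptides that bind Ubr1 speed this up, so that peptides induce their own carrier. Amino acids outside the cell induce PTR2 as well, through the sensor Ssy1 and the transcription factors Stp1 and Stp2. DAL5 encodes a permease of allantoate, a nitrogen source, that also carries some dipeptides, and it is silenced while good nitrogen sources last. OPT1 encodes a high-affinity carrier of glutathione and oligopeptides, and OPT2 a relative of it.

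PTR2 lay far below 0 on every array and stood apart from the other 5 genes. Its log ratios were -0.399, -1.13, -0.440 and -0.456 on arrays 1 to 4. If base 10, these are ratios 2.51-fold, 13.5-fold, 2.75-fold and 2.86-fold lower in the knockout. Arrays 1, 3 and 4 lay close together and array 2 lay far below them. The mean was -0.607 ± 0.351 log units (SD, n = 4, 4.04-fold lower if base 10), and without array 2 it was -0.432 ± 0.0292 (SD, n = 3, 2.70-fold lower if base 10). PTR2 ranked 72nd from the lowest of 6203 values on array 1, 2nd of 6207 on array 2, 47th of 6198 on array 3 and 36th of 6203 on array 4. At most 1.14% of the values on an array lay below it. By the mean it ranked 24th from the lowest of 6205 genes, and by the SD between arrays 27th from the highest. The only value below PTR2 on array 2 was that of PEX9, at the table's limit of -2.0. LOC1 itself, at -0.973, lay above PTR2 on that array. On array 3 the lowest values also lay at this limit.

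**Figure D1:**
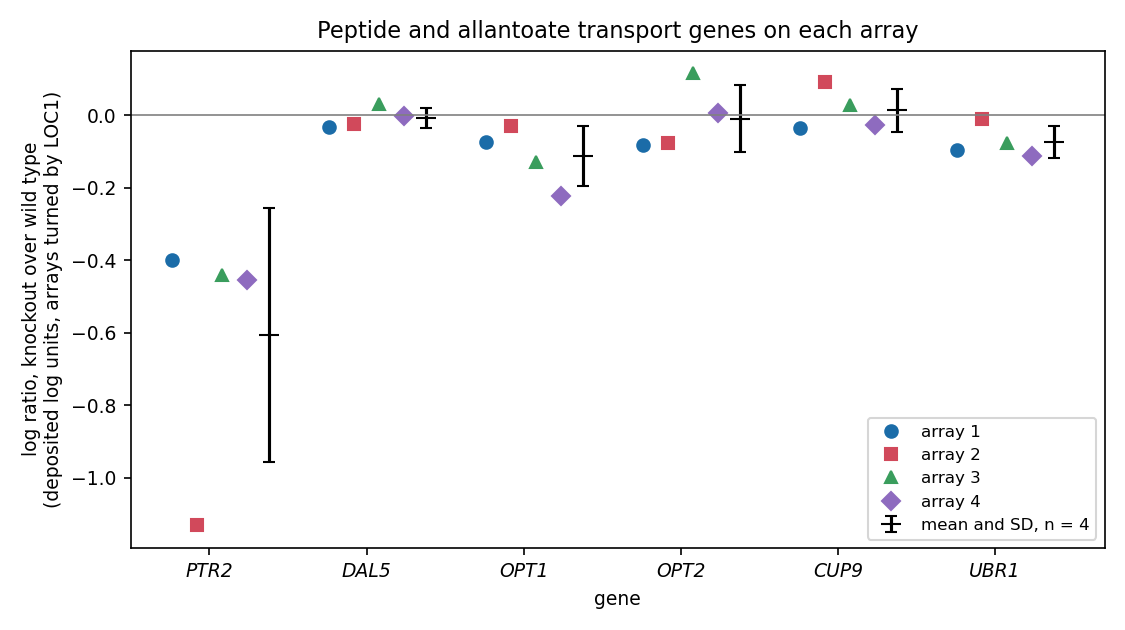
Log ratio of knockout over wild type (vertical axis, deposited log units) for each of the 6 genes, with a marker for each of the 4 arrays and the mean with its SD in black (n = 4). PTR2 lies below every value of the other 5 genes, at -1.13 on array 2 and between -0.456 and -0.399 on the other arrays.

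The spread of PTR2 came from array 2. The arrays themselves were similarly wide, with an SD over genes of 0.153, 0.156, 0.149 and 0.143 log units on arrays 1 to 4. In units of these, the value of PTR2 was -7.25 SD on array 2, against -2.60 SD on array 1, -2.94 SD on array 3 and -3.20 SD on array 4. The deposited table holds 1 value per gene and array, so whether several spots stand behind the value of array 2 was not tested.

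Among the other carriers, OPT1 was modestly lower on all 4 arrays. It had -0.0733, -0.0293, -0.129 and -0.222 log units on arrays 1 to 4. Array 4 was the lowest and array 2 the closest to 0, the reverse of the place of array 2 in PTR2. The mean was -0.113 ± 0.0832 (SD, n = 4, 1.30-fold lower if base 10), and 27.8% of genes had a mean of larger size.

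OPT2 had values on both sides of 0, with -0.0820, -0.0772, 0.115 and 0.0045 on arrays 1 to 4. Its mean was -0.0099 ± 0.0923 log units (SD, n = 4), so the arrays differed from each other by more than their mean differed from 0. YGL114W, a further predicted member of the oligopeptide transporter family that was named after the values of OPT1 and OPT2 were seen, fell by 0.143 ± 0.0596 (SD, n = 4) with adjusted p = 0.00481 in limma and was below 0 on all 4 arrays.

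DAL5 lay close to 0 on every array. Its log ratios were -0.0326, -0.0243, 0.0297 and -0.0036 on arrays 1 to 4, with a mean of -0.0077 ± 0.0277 (SD, n = 4), and 93.5% of genes had a mean of larger size. Signal over background is unknown here, so a gene that is barely expressed in rich medium in both strains and a gene with equal levels cannot be told apart.

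Of the regulators of PTR2, the repressor gene CUP9 lay on both sides of 0. It had -0.0357, 0.0915, 0.0264 and -0.0284 on arrays 1 to 4, with a mean of 0.0135 ± 0.0589 log units (SD, n = 4). UBR1, whose product removes Cup9, had -0.0972, -0.0114, -0.0762 and -0.114 on arrays 1 to 4 and was lower on all 4. Its mean was -0.0746 ± 0.0449 (SD, n = 4, 1.19-fold lower if base 10). Array 2, where PTR2 was lowest, was the array with the highest value of CUP9 and with UBR1 closest to 0. This was noticed after the values were seen, 4 arrays are too few for a correlation, and it was not tested. On arrays 1, 3 and 4, where PTR2 was steady, CUP9 had both signs and UBR1 stayed between -0.114 and -0.0762.

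Ordered by the mean from the lowest, the genes were PTR2, OPT1, UBR1, OPT2, DAL5 and CUP9. The range of PTR2 over the arrays did not overlap that of any other of the 6 genes. The ranges of OPT1 and UBR1 overlapped, as did those of UBR1 and OPT2, of OPT2 and DAL5 and of DAL5 and CUP9. Overlap of ranges does not show that neighbours in this order are alike, and their differences within arrays were not tested. All 6 genes had a value on every array. PTR2, OPT1 and UBR1 were lower on all 4 arrays and the other 3 genes had mixed signs. Of the genes with 4 values, 28.1% were lower on all 4, 28.5% were higher on all 4 and 43.4% had mixed signs, shares that turning the arrays by LOC1 partly builds in. Since the genes were chosen with this comparison known, nothing is read from these counts.

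**Figure D2:**
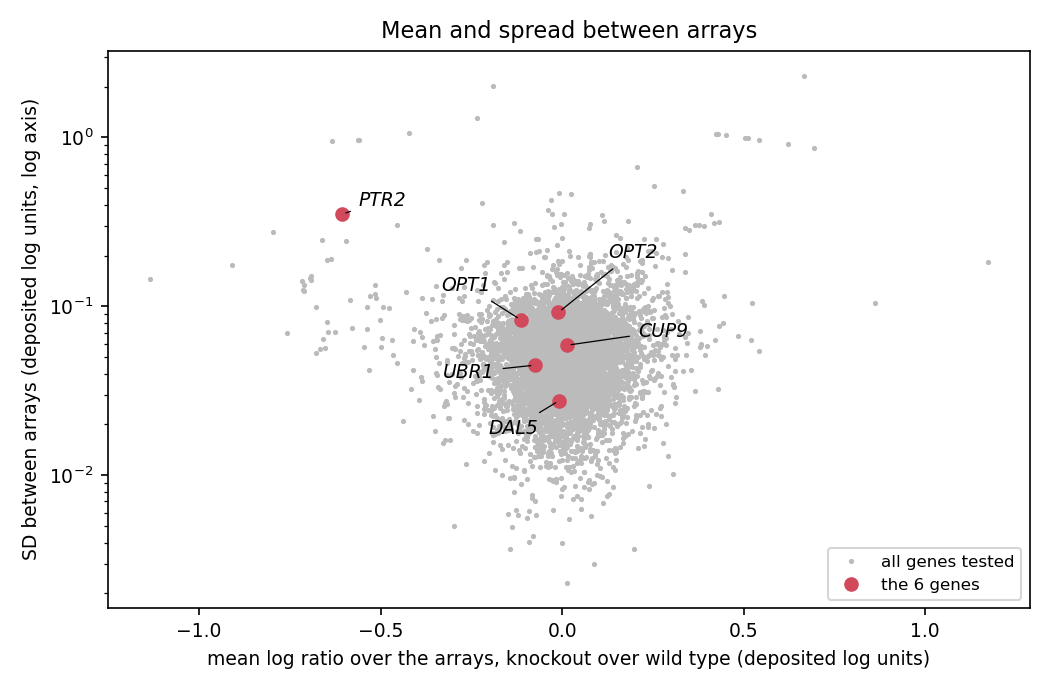
Mean log ratio over the arrays (horizontal axis, deposited log units) against the SD between arrays (vertical axis, log scale) for all genes tested in grey and the 6 genes in red. PTR2 lies at a mean of -0.607 and an SD of 0.351, outside the bulk of genes that holds the other 5.

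The gene lists that follow were written from textbook knowledge of the pathways around these genes, with earlier results of these arrays known. They hold 96 genes besides the 6, all measured, of which 3 stand in 2 lists. By limma (adjusted p under 0.05), 44.2% of all genes tested passed, 21.7% lower and 22.5% higher. Of the 96 listed genes, 33 fell (34.4%), 13 rose (13.5%) and 50 did not pass the threshold. With 1 array left out, between 26 and 34 fell. The number that rose was 7 without array 1, without array 3 or without array 4. The list medians are set against a median of 0.00189 log units over all genes tested. All tests in these lists are those of limma over all genes, and with the sign of the arrays turned the falls and rises exchange.

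The mRNAs of CYC8 and TUP1, which encode the corepressor with which Cup9 acts, were lower in the knockout. CYC8 had -0.309, -0.252, -0.245 and -0.243 log units on arrays 1 to 4 and fell by 0.262 ± 0.0315 (SD, n = 4) with adjusted p = 0.000149 in limma. TUP1 had -0.154, -0.160, -0.0708 and -0.165 and fell by 0.138 ± 0.0447 (SD, n = 4) with adjusted p = 0.00362 in limma. Both genes were below 0 on every array, and array 2 was not the lowest for either of them. Of the 8 genes of the N-end rule and Cup9 repression, these 2 fell and 0 rose (21.7% and 22.5% of all genes did). The share that fell, 25.0%, was near that of all genes. At an unadjusted p under 0.05 in limma, 3 were lower and 0 higher, and the list's median was -0.0273. Without array 1, 1 gene of this list passed as higher. The ubiquitin-conjugating enzyme gene RAD6, the partner of Ubr1, had a mean of -0.0434, and UBC4, another such enzyme, 0.0555. The ligase genes UBR2 and UFD4 had -0.0605 and -0.0113, the arginyl-transferase gene ATE1 -0.0036 and the amidase gene NTA1 0.0265, and none of these 6 passed the threshold.

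The sensor pathway that induces PTR2 in response to amino acids had changes both ways, with 2 of 8 genes lower and 2 higher (25.0% each, near the share of all genes) and a median of -0.0126. SSY1, the sensor in the plasma membrane, fell by 0.104 ± 0.0210 log units (SD, n = 4, adjusted p = 0.00704 in limma). ASI1, part of the nuclear membrane ligase that holds Stp1 and Stp2 in check, fell by 0.222 ± 0.0318 (SD, n = 4, adjusted p = 0.000325 in limma). STP2 rose by 0.129 ± 0.0622 (SD, n = 4, adjusted p = 0.00815 in limma), with 0.207, 0.0549, 0.128 and 0.125 on arrays 1 to 4. PTR3, which encodes the scaffold of the sensor, rose by 0.0897 (adjusted p = 0.0218), a call that was lost without array 1, 3 or 4 (adjusted p up to 0.0931). The protease gene SSY5 had a mean of -0.0041, STP1 -0.0083, the coactivator gene DAL81 -0.0545 and the F-box gene GRR1 -0.0170, and none of these passed.

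Of 7 amino acid permease genes under the same sensor, 4 fell and 1 rose, against 21.7% and 22.5% of all genes, with a list median of -0.0959 log units. The falls were those of DIP5, for acidic amino acids, at -0.161 ± 0.0353 (SD, n = 4), BAP3 at -0.152 ± 0.0700, AGP1 at -0.150 ± 0.0800 and TAT2, for aromatic amino acids, at -0.0959 ± 0.0278, with adjusted p between 0.0014 and 0.0108 in limma. AGP1 had -0.133, -0.0458, -0.195 and -0.228 on arrays 1 to 4, so array 2 was closest to 0, where PTR2 was lowest. TAT2 lost its call without array 4 (adjusted p = 0.0504). BAP2, for branched-chain amino acids, rose by 0.0772 (adjusted p = 0.0356) and lost its call without array 1, 3 or 4 (adjusted p up to 0.128). TAT1 had a mean of -0.0643 and GNP1 -0.0622, and neither passed. PTR2 lay further from 0 than each of these permease genes on all 4 arrays.

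**Figure D3:**
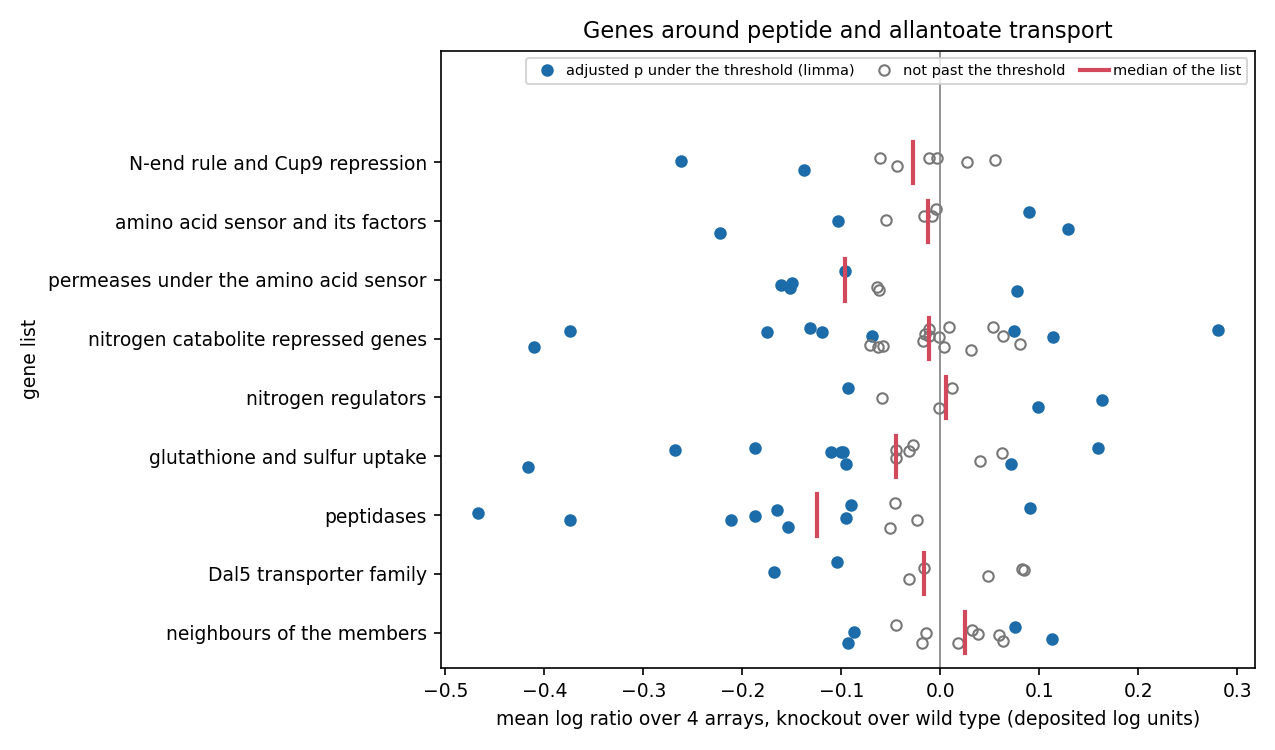
Mean log ratio over 4 arrays (horizontal axis, deposited log units) of the genes in 9 lists around the 6 genes (vertical axis), filled where limma's adjusted p was under 0.05, with the median of each list in red. The lists of peptidases and of permeases under the amino acid sensor have the lowest medians, -0.125 and -0.0959, and each of the 9 lists has members on both sides of 0.

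Of 23 genes that, like DAL5, are repressed while good nitrogen sources last, 6 fell (26.1%, against 21.7% of all genes), 3 rose (13.0%, against 22.5%) and 14 did not pass. The share that fell was near that of all genes, and the median was -0.0117 log units. GAP1, the general amino acid permease, had -0.431, -0.349, -0.420 and -0.443 log units on arrays 1 to 4 and fell by 0.411 ± 0.0421 (SD, n = 4, 2.57-fold if base 10, adjusted p = 3.83e-05 in limma). CPS1, a vacuolar carboxypeptidase, had -0.347, -0.509, -0.300 and -0.343 and fell by 0.375 ± 0.0917 (SD, n = 4, adjusted p = 0.000203 in limma). PUT4, the proline permease, had 0.207, 0.254, 0.307 and 0.354 and rose by 0.280 ± 0.0637 (SD, n = 4, adjusted p = 0.000298 in limma). These genes held their direction on every array. MEP2, an ammonium permease, fell by 0.175 ± 0.107 (SD, n = 4, adjusted p = 0.00848 in limma), with -0.0150 on array 2 and between -0.243 and -0.216 on the others. DAL7, the malate synthase gene of allantoin use, rose by 0.114 (adjusted p = 0.00571 in limma), while DAL1, DAL2, DAL3 and DAL4, the genes of allantoin and allantoate breakdown and allantoin uptake, had means from -0.0708 to 0.0808 and did not pass. The lowest of these means, that of DAL4, came from array 3. DAL4 had 0.0873, -0.0673, -0.428 and 0.124 on arrays 1 to 4 (SD 0.252, n = 4). DAL7 and the 4 others were named after their values were seen, as the closest functional partners of DAL5.

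The factors that switch these genes were mixed too, with 1 of 6 lower and 2 higher, against 21.7% and 22.5% of all genes, and a median of 0.00517 log units. GZF3, a GATA repressor gene, rose by 0.164 ± 0.0600 (SD, n = 4, adjusted p = 0.00274 in limma). DAL80, the other GATA repressor gene, fell by 0.0931 (adjusted p = 0.0231), a call lost without array 1 or 3. DAL82, an activator of the allantoin genes, rose by 0.0991 (adjusted p = 0.0137), a call lost without array 1 (adjusted p = 0.0546). The activator genes GLN3 and GAT1 had means of 0.0115 and -0.0011 and URE2, whose product holds Gln3 in the cytoplasm, -0.0594, and none of the 3 passed.

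Among relatives of DAL5 in its own transporter family, a list added after the values of the 6 genes were seen, 2 of 7 fell and 0 rose (21.7% and 22.5% of all genes did), with 2 lower and 2 higher at an unadjusted p under 0.05 and a median of -0.0168. TNA1, the nicotinic acid carrier, fell by 0.168 ± 0.0264 log units (SD, n = 4, adjusted p = 0.000973 in limma), and FEN2, the pantothenate carrier, was at -0.104 ± 0.0303 (SD, n = 4, adjusted p = 0.00832 in limma). The biotin carrier gene VHT1 had a mean of -0.0168, the cysteine carrier gene YCT1 -0.0313, SEO1 0.0477, THI73 0.0846 and SOA1 0.0828, and none of these passed. DAL5 lay within the range of these 7 means.

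Opt1 carries glutathione, and of 15 genes of glutathione metabolism and sulfur uptake 7 fell and 2 rose, against 21.7% and 22.5% of all genes, with a median of -0.0447 log units. With any 1 array left out only 1 rose, as MMP1, a permease of S-methylmethionine at 0.0717 (adjusted p = 0.0485), lost its call each time. Of the falls, GSH2 lost its call without array 1 or 4 and DUG1 without array 3 or 4. Without array 4, 5 genes were lower. GSH1, the first enzyme of glutathione synthesis, had -0.419, -0.397, -0.390 and -0.462 log units on arrays 1 to 4 and fell by 0.417 ± 0.0325 (SD, n = 4, 2.61-fold if base 10, adjusted p = 2.7e-05 in limma). YCF1, which carries glutathione conjugates into the vacuole, fell by 0.268 ± 0.0828 (SD, n = 4, adjusted p = 0.000682 in limma), and SAM3, a permease of S-adenosylmethionine, was at -0.187 ± 0.0252 (SD, n = 4, adjusted p = 0.000615 in limma). SUL1, a sulfate permease, rose by 0.159 ± 0.0600 (SD, n = 4, adjusted p = 0.00314 in limma). GSH1 lay further from 0 than OPT1 on each array.

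Peptidase genes had the lowest median of the 9 lists of more than 1 gene, -0.125 log units, with 8 of 12 lower and 1 higher, against 21.7% and 22.5% of all genes. The list holds peptidases and proteinases, among them enzymes of the vacuole. PEP4, DAP2 and STE13 had means of -0.024, -0.0504 and -0.0457 and did not pass. APE1, a vacuolar aminopeptidase, had -0.453, -0.422, -0.450 and -0.541 on arrays 1 to 4 and fell by 0.467 ± 0.0515 (SD, n = 4, 2.93-fold if base 10, adjusted p = 2.75e-05 in limma). Besides CPS1, the other large falls were in PRB1, a vacuolar endoproteinase, at -0.212 ± 0.0439 (SD, n = 4, adjusted p = 0.000563 in limma) and APE2, an aminopeptidase, at -0.187 ± 0.0286 (SD, n = 4, adjusted p = 0.000664 in limma). APE3, another vacuolar aminopeptidase, rose by 0.0908 (adjusted p = 0.0302) and lost its call without array 1, 3 or 4 (adjusted p up to 0.129). Of the falls, those of PRC1 and DUG1 lost their calls without array 3 or 4, which left 6 genes lower. On arrays 1, 3 and 4 APE1 lay somewhat further below 0 than PTR2, and on array 2 PTR2 lay far lower.

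Neither measured gene next to PTR2 on the chromosome fell, and the neighbours of the other genes had small values. Of the pair beside PTR2, SRP40 had a mean of -0.0186 ± 0.0732 log units (SD, n = 4) and did not pass, and RPL40B, a ribosomal protein gene, rose by 0.113 ± 0.0392 (SD, n = 4, adjusted p = 0.00733 in limma). On array 2, where PTR2 had -1.13, SRP40 had 0.0003 and RPL40B 0.127. The neighbours of DAL5 (DAN4 at -0.0451 and PGU1 at 0.0315), OPT1 (YJL213W at 0.0182 and PEX2 at 0.0380) and OPT2 (AQY1 at -0.0146 and YPR195C at 0.0634) did not pass. DAN4 and AQY1 each lay 2 steps away, as the gene between was not among those tested. Next to CUP9, TRE1 fell by 0.0928 (adjusted p = 0.0219), a call lost without array 3 or 4, and CBC2 rose by 0.0757 (adjusted p = 0.0393), a call lost whichever array was left out. Next to UBR1, TYS1 fell by 0.0873 (adjusted p = 0.0257), a call lost without array 3 or 4, and QCR9 at 0.0591 did not pass. In all, 2 of 12 neighbours fell and 2 rose (16.7% each, against 21.7% and 22.5% of all genes), which is near the share of all genes.

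The rows most like PTR2 were those at the smallest Euclidean distance from it over the 4 arrays, among 6191 genes with a value on each. They were YMR051C at a distance of 0.376 log units, VTC3 at 0.405, YJR026W at 0.405, YML045W at 0.427 and YML040W at 0.432. VTC3 encodes a subunit of the polyphosphate synthesis complex, and the other 4 carry no symbol in the gene table used. Whether these 4 rows measure distinct transcripts was not tested, so they are not counted as separate likenesses to PTR2. VTC3 had -0.702, -0.882, -0.341 and -0.451 on arrays 1 to 4, and YMR051C had -0.738, -0.975, -0.437 and -0.497. Array 2 was the lowest for PTR2 and for all 5, which the choice by distance over these same values partly builds in. Array 1, where PTR2 had its value closest to 0, was the second lowest for each of the 5.

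**Figure D4:**
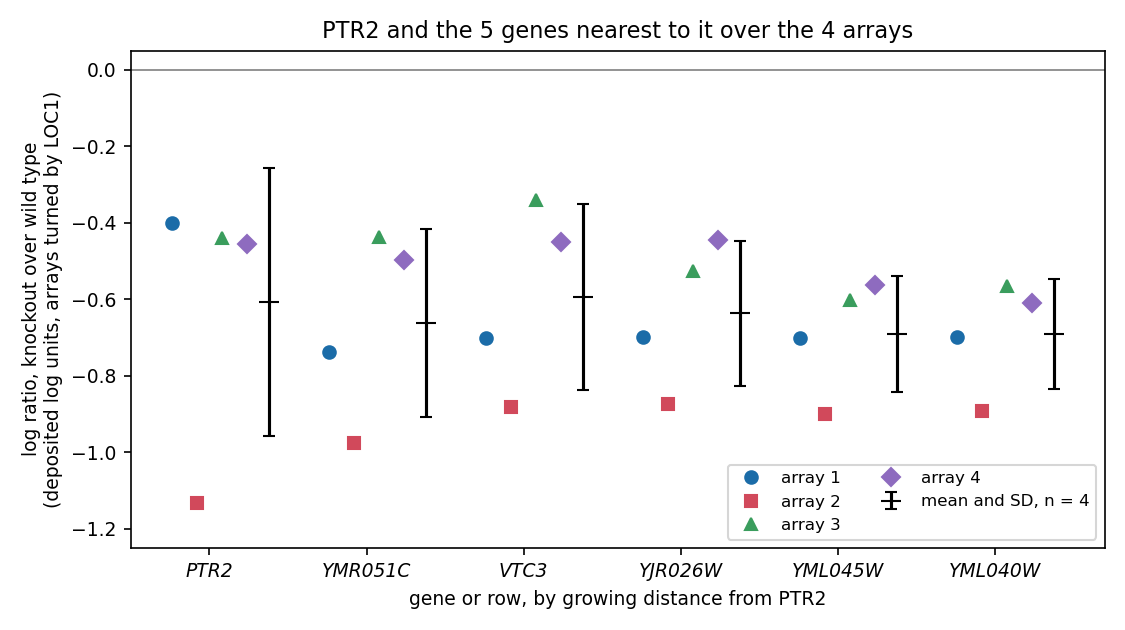
Log ratio of knockout over wild type (vertical axis, deposited log units) on each of the 4 arrays for PTR2 and the 5 rows nearest to it by Euclidean distance, with the mean and SD in black (n = 4). On array 1 PTR2 lies at -0.399 and the 5 rows lie between -0.738 and -0.698.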

How the data were processed

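RNA of the knockout and of wild type was compared directly on 4 arrays, in 50 mL cultures per the labels' protocols. The values are the authors' deposited log ratios, read as log10 from their limit at 2, which 22 values reached. The scanner, background correction and normalization are not stated in the labels. Rows of 3 controls were left out of 6210. Symbols came from a RefSeq gene table of assembly R64, in which 5654 IDs matched and 553 did not.

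Arrays 2 and 4 were turned so that LOC1 was below 0. Genes with values on at least 3 arrays (6205) were tested against a mean of 0 with limma (version 3.58.1, functions lmFit and eBayes, under R 4.3.3), two-sided, with Benjamini-Hochberg adjustment over all of them and a threshold of 0.05. The procedure was also run on simulated arrays with independent noise. Far fewer genes were changed there than passed here, so that run says little about these calls. The members and lists were chosen with earlier results of these data known. Named were the 6 genes and LOC1, all genes of lists of up to 8 and the neighbours, the 4 largest passing changes of longer lists with the largest opposite one, and the 5 rows nearest to PTR2. Further genes of longer lists were named where a call was lost or not reached. A search of promoters for motifs was planned and was not run, as sequences were not used here. Alternatives were the turning by dye labels, pairs of arrays, centring, scaling, the limit values, missing values and each array left out. Precision is limited by the number of arrays.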

Additional observations from a re-analysis of the deposited data

Results flagged for a closer look

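In 7 of the 108 genes named or listed (6.48%), 1 array lay far from the other 3, with a gap to the nearest of them, as a share of the whole range, above Dixon's critical value for 4 samples. Chance alone gives about 1 in 20 such cases, and 4.97% of the 6192 genes with 4 values exceeded it. For PTR2 the ratio was 0.923, from array 2 at -1.13 log units against a mean of -0.432 on the others. UGA4, a permease gene of the nitrogen list, had a ratio of 0.943, with array 2 at -0.0811 against a mean of 0.0388. DAL81 had 0.902, with array 2 at -0.101 against -0.0390. TUP1 had 0.886, with array 3 at -0.0708 against -0.160, and CYC8 had 0.861, with array 1 at -0.309 against -0.247. MEP2 had 0.882, with array 2 at -0.0150 against -0.229, and DIP5 had 0.857, with array 2 at -0.109 against -0.178. In 5 of the 7 the array apart was array 2, on the lower side for PTR2, UGA4 and DAL81 and on the higher side for MEP2 and DIP5. How often array 2 was the array apart among all genes above the critical value was not counted. Nothing about array 2 is therefore read from this number.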

How the results depend on the processing

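Turning the arrays by the dye labels changed most: the mean of PTR2 was -0.159, OPT1 was at 0.0621 and UBR1 at 0.0203 log units, the number of genes past the threshold over all genes was 1, and 0 listed genes in either direction passed in limma (0 also at an unadjusted p under 0.05). Turning by the dye labels keeps the opposite signs of arrays 1 and 4 (r = -0.723) and of arrays 2 and 3 (r = -0.612). Opposite values are then averaged. On arrays 1 and 2 alone 1185 genes passed, among them 15 listed genes lower and 1 higher. On arrays 3 and 4 alone 2891 passed, among them 37 listed genes lower and 13 higher. The pairs of arrays thus gave unlike counts at the same number of arrays. The cause of the differing counts, here and with single arrays left out, was not tested. With each array left out in turn, between 2009 and 2598 genes passed, and of the listed genes between 26 and 34 lower and between 7 and 13 higher. The means ran from -0.676 to -0.432 for PTR2, -0.141 to -0.0770 for OPT1, -0.0956 to -0.0616 for UBR1, -0.0516 to 0.0141 for OPT2, -0.0201 to 0.00061 for DAL5 and -0.0125 to 0.0299 for CUP9. Of the 46 listed genes past the threshold, 30 passed with each array left out and 16 did not. Centring, scaling, leaving out values at the limit and requiring 4 values moved no mean of the 6 genes by as much as its SD and no count over all genes or over the listed genes together by over 1.5 times. Each array is itself a comparison of 2 channels, so testing its log ratios against 0 already pairs the 2 cultures of an array. There is 1 group of arrays, and no further pairing was used.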
